A study of Mus musculus with 8 samples.

Results

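The Clca genes described here were Clca1, Clca3b, Clca4a and Clca4b, 4 genes of 14333 with a value in RNA sequencing of mouse crypt organoids. They were selected on their measured FPKM in these samples, with the values of both genotypes known from the Clca genes whose events stood under their own Ensembl identifier, and the remaining Clca genes are described beside them. The difference between the genotypes is therefore given for these 4 genes as a description, without a test. The samples were 4 WT and 4 MG53-TG organoid cultures, named here by their replicate numbers 1 to 4. MG53-TG mice overexpress MG53 in the whole body, and WT were their littermates. The labels name no other allele. The study calls the sequenced organoids MG53-TG and WT in one passage, as the labels do, and MG53;Lgr5 and Lgr5 in another, Lgr5 being a line with an EGFP and CreERT2 cassette knocked into Lgr5. Whether both groups carried that allele is therefore not settled, which bears on the level of Lgr5 among the stem cell markers. MG53, encoded by Trim72, is a tripartite motif protein known for membrane repair in muscle. Both groups were grown from small-intestinal crypts in Matrigel with IntestiCult medium, and no damaging agent is named in the labels of either group. The promoter of the transgene, the sex and age of the animals and the number of animals behind the cultures are not given in the sources used here, so the spread between samples may be technical.

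The family name stands for chloride channel accessory. CLCA proteins are not channels themselves but carry a zinc-binding metalloprotease site with which they cleave their own chain, and CLCA1 is known to raise the current of the calcium-activated chloride channel ANO1. Clca1 is known as a major secreted protein of intestinal goblet cells, where it becomes part of the mucus. The other genes arose by duplication, and the duplicates still lie side by side in the genome. Secretion and cleavage are properties of the proteins and were not measured in these RNA data.

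The 8 annotated Clca genes, 7 coding and 1 pseudogene, lay in a row of 369.8 kb at chr3:144729677-145099443 (GRCm38), all on the minus strand. Clca3b (ENSMUSG00000037033) was at chr3:144822623-144849357, Clca4b (ENSMUSG00000074195) at chr3:144910921-144932529, Clca4a (ENSMUSG00000068547) at chr3:144952480-144975045 and Clca1 (ENSMUSG00000028255) at chr3:145003817-145032776. In all 4 genes the codons of the zinc-binding motif, whose 2 histidines bind the metal and whose glutamate takes part in catalysis, lay in exon 4 of 14 of the annotated transcript. Codons for this motif were found in the coding sequences of 712 of 21877 protein-coding genes (3.25%), so the motif alone does not set the family apart. The 39 bases around them are shown because they carry the site that names the family and show how close the copies are, with the 5 codons of the motif in capitals.
Clca1, chr3:145024591-145024629, minus strand: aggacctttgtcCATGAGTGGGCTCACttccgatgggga
Clca3b, chr3:144846430-144846468, minus strand: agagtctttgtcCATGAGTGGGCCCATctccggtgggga
Clca4a, chr3:144969373-144969411, minus strand: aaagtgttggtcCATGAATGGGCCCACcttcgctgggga
Clca4b, chr3:144927193-144927231, minus strand: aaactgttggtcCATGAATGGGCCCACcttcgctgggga
Clca4a and Clca4b differed at 1 of these 39 bases, and Clca3b differed from Clca4b at 8. Over the whole coding sequence, Clca4a and Clca4b were identical at 96.04% of aligned bases, whereas Clca3b and Clca4b were identical at 61.35% and Clca1 and Clca3b at 64.83%. Of all stretches of 50 bases in the transcript, 24.8% in Clca4b, 37.1% in Clca4a, 5.98% in Clca3b and 0% in Clca1 also occurred in another Clca transcript. Reads from Clca4a and Clca4b could therefore be split between these genes by the mapping, and their values are uncertain to that degree, whereas Clca1 had no such stretch. The length of the reads is not given in the sources used here.

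Trim72, the transgene, had no entry in any WT culture and was listed at 16.4, 27.4, 31.9 and 36.5 FPKM in the MG53-TG cultures 1 to 4, as the labels state. The MG53-TG cultures fell into pairs in several of the values below, with cultures 3 and 4 apart from cultures 1 and 2. FPKM summed over all transcription starts was also higher in that pair, at 283841 and 284330 against 269094 and 273249 in cultures 1 and 2 and 269837 to 273797 in the WT cultures. Main differences are therefore given also without MG53-TG cultures 3 and 4. Between 11810 and 12250 genes were listed per sample. The depth is unknown, since no read counts were used, and no counting interval was computed.

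Clca3b was the most abundant of the 4 genes in the WT organoids and was at a small share of that level in every MG53-TG culture. FPKM, fragments scaled to transcript length and to all mapped fragments, allows levels to be compared between genes. Clca3b was at 114, 107, 88.6 and 109 FPKM in WT cultures 1 to 4. It was at 8.17, 7.55, 2.32 and 0.60 FPKM in MG53-TG cultures 1 to 4. The groups did not overlap, and the lowest WT culture was 10.8 times the highest MG53-TG culture. The means were 105 ± 11.2 FPKM in WT and 4.66 ± 3.77 FPKM in MG53-TG (n = 4 each, SD), a ratio of 22.5. On the log2(FPKM + 1) scale, which understates the change of genes with low FPKM, the difference of MG53-TG minus WT was -4.54. Without MG53-TG cultures 3 and 4 it was -3.57. The spread was much wider in the MG53-TG group, with an SD of 1.20 on the log2(FPKM + 1) scale against 0.16 in the WT. The highest MG53-TG culture was 13.6 times the lowest, whereas this ratio was 1.29 among the WT cultures. In these bulk samples, fewer cells of a type and less RNA per cell cannot be told apart.

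Clca4b took the opposite direction. It was at 32.2, 27.4, 25.9 and 28.2 FPKM in WT cultures 1 to 4, and at 72.5, 77.2, 141 and 140 FPKM in MG53-TG cultures 1 to 4. Every MG53-TG culture lay above every WT culture, and the lowest MG53-TG culture was 2.25 times the highest WT culture. The means were 28.4 ± 2.69 FPKM in WT and 108 ± 38.2 FPKM in MG53-TG (n = 4 each, SD), a ratio of 3.80 and a log2(FPKM + 1) difference of 1.82. Without MG53-TG cultures 3 and 4 the difference was 1.37. Within the MG53-TG group the samples formed pairs, with samples 3 and 4 close to each other and 1.95 times as high as sample 1 at the widest. The same samples 3 and 4 had the lowest Clca3b.

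Clca1, the goblet cell gene, was listed at low values only. It was at 1.27, 1.74, 1.21 and 1.72 FPKM in WT cultures 1 to 4. In the MG53-TG organoids it was at 0.507, 0.926 and 1.09 FPKM in samples 1, 3 and 4 and was not listed in sample 2. The 3 listed MG53-TG values lay below the 4 WT values. The means were 1.49 ± 0.283 FPKM (SD, n = 4) and 0.842 ± 0.301 FPKM (SD, n = 3), and the log2(FPKM + 1) difference of -0.44 leaves out MG53-TG culture 2. With that culture at 0 the difference was -0.66.

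Clca4a was listed in MG53-TG culture 3 alone, at 0.754 FPKM, through 1 transcription end and no transcription start. It was not listed in the other 7 samples and stayed under the filter of a mean of 0.5 FPKM over all samples, so no difference was taken. Of the 4 genes, 3 passed this filter.

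**Figure D1:**
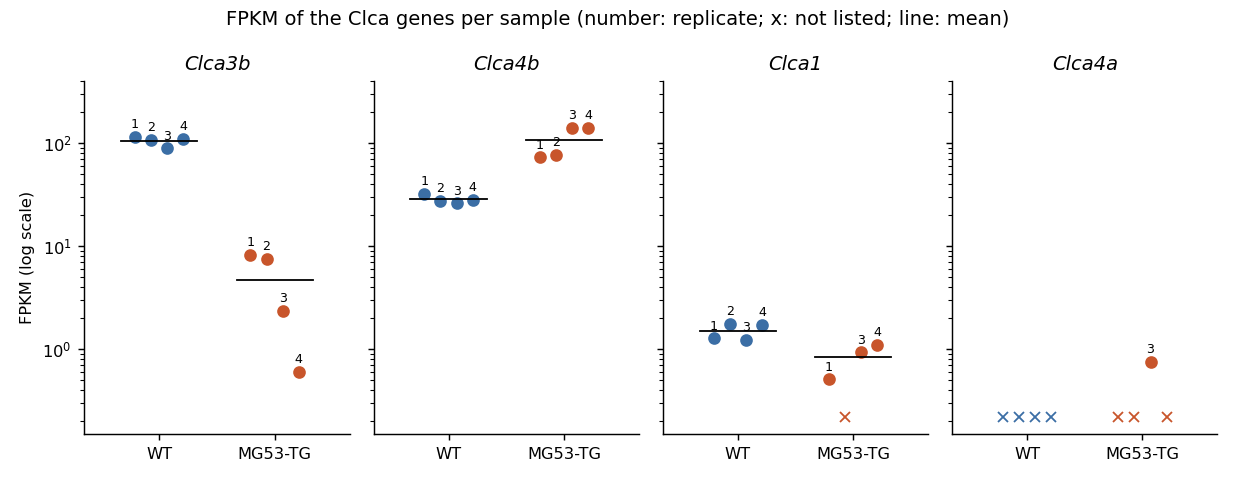
FPKM of the 4 Clca genes per sample on a log axis, with WT cultures in blue and MG53-TG cultures in orange, the replicate number above each point, the mean of the listed samples as a line and crosses at the bottom for samples without an entry. Clca3b lay at 88.6 to 114 FPKM in WT and at 0.60 to 8.17 FPKM in the MG53-TG cultures, Clca4b lay at 25.9 to 32.2 and at 72.5 to 141 FPKM, and Clca4a had 1 entry.

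Among all 11067 genes whose mean reached 0.5 FPKM, 28.7% were below every WT culture in all 4 MG53-TG cultures, and 15.7% were higher in every MG53-TG culture. By limma on log2(FPKM + 1) with Benjamini-Hochberg adjustment, 28.7% of these genes were lower and 15.6% were higher at an adjusted p of at most 0.05. A difference without overlap was thus common in this comparison, and since the 4 genes were chosen with it known, nothing is read from their count. When samples were scaled by median of ratios, the median difference over all genes moved by 0.16 on the log2 scale, and the called genes were split into 2247 higher and 2233 lower instead of 1727 higher and 3178 lower. The log2 differences of Clca3b and Clca4b were -4.39 and 2.01 under this scaling.

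The order of the genes was exchanged between the genotypes. In the WT organoids Clca3b was highest, followed by Clca4b and then Clca1, with no overlap between neighbours in this order. In the MG53-TG organoids Clca4b was highest, and the ranges of Clca3b and Clca1 overlapped. Clca4b made up 22%, 20.4%, 22.6% and 20.5% of the FPKM of Clca3b and Clca4b together in WT cultures 1 to 4. In MG53-TG cultures 1 to 4 this share was 89.9%, 91.1%, 98.4% and 99.6%. The summed level of the pair was 147, 134, 114 and 138 FPKM in WT cultures 1 to 4 and 80.6, 84.8, 144 and 141 FPKM in MG53-TG cultures 1 to 4. In contrast to the share, the sum overlapped between the groups, with means of 133 ± 13.5 FPKM in WT and 113 ± 34.5 FPKM in MG53-TG (n = 4 each, SD). MG53-TG cultures 3 and 4 lay within the range of the WT sums, and samples 1 and 2 lay below it.

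**Figure D2:**
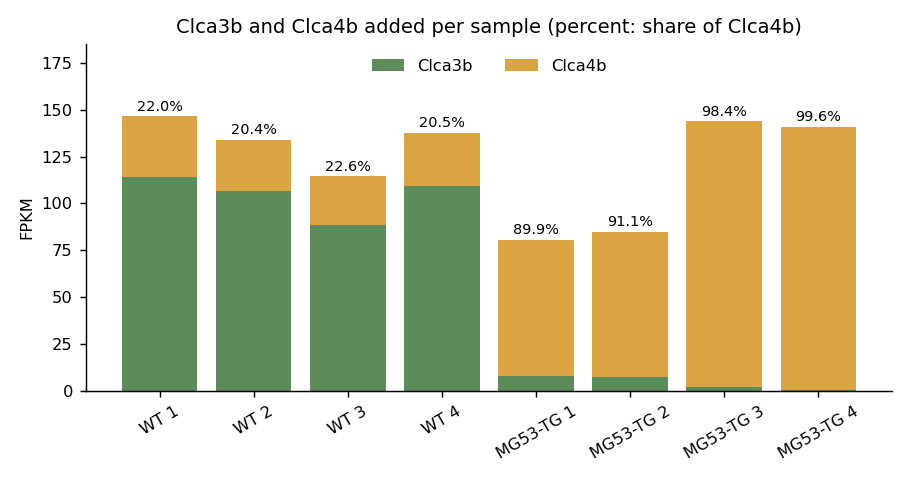
FPKM of Clca3b (green) and Clca4b (yellow) stacked per sample, with the share of Clca4b in percent above each bar. The share was 20.4% to 22.6% in the WT cultures and 89.9% to 99.6% in the MG53-TG cultures, whereas the height of the bars overlapped between the groups.

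The other Clca genes of the cluster were at low levels in both groups. Clca3a2, whose coding sequence was identical to that of Clca3b at 86.67% of bases, starts 3128 bases beyond the end of Clca3b. It was at 1.72, 0.661, 1.72 and 2.42 FPKM in WT cultures 1 to 4, at 0.823, 0.635 and 1.09 FPKM in MG53-TG cultures 1 to 3, and was not listed in MG53-TG culture 4. These values are sums over transcription ends. The end of the annotated gene, at chr3:144796559-144797822, was listed in all WT cultures but only in culture 1 of MG53-TG. The values of MG53-TG cultures 2 and 3 came from ends inside the gene and, in culture 3, also from 0.590 FPKM at chr3:144785741-144785960, outside it. The log2 difference of Clca3a2 was -0.47, with sample 4 left out, and did not pass the test (standard error 0.25, limma adjusted p = 0.160). By its transcription start alone, which was at 1.44, 0.486, 1.46 and 2.19 FPKM in WT and was not listed in any MG53-TG culture, Clca3a2 passed it (log2 difference -1.21, limma adjusted p = 0.00298). Clca3a1 was at 1.51, 2.04, 1.57 and 3.00 FPKM in WT and at 2.10, 2.17, 1.89 and 0.960 FPKM in MG53-TG, and its groups overlapped (log2 difference -0.12, standard error 0.21, limma adjusted p = 0.656). The coding sequences of Clca3a1 and Clca3a2 were identical at 97.08% of bases, and all 5 events of Clca3a1 were deposited under the identifier of Clca3a2, so the division between this pair is uncertain. Clca2 and the pseudogene Clca4c-ps had no entry.

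The protein-coding genes on either side of the cluster, within 500 kb, were Hs2st1, Selenof, Sh3glb1, Odf2l and Znhit6, which were listed in all samples, and Col24a1, which had no entry. Of the 5 listed, 1 was lower at the threshold and none was higher, against 28.7% and 15.6% of all genes. Hs2st1, a heparan sulfate sulfotransferase, fell from 9.22 ± 0.365 to 5.57 ± 2.07 FPKM (n = 4 each, SD; log2 difference -0.69, standard error 0.21, limma adjusted p = 0.0280). Its MG53-TG values were 7.31, 7.41, 3.98 and 3.6 FPKM, with cultures 3 and 4 again apart from cultures 1 and 2, and without those 2 cultures the log2 difference was -0.29. It passed the threshold in 2 of 8 fits that each left out 1 sample and had a limma adjusted p of up to 0.0729 in the other 6, which left out MG53-TG culture 3 or 4 or any 1 WT culture. The other neighbours overlapped between the groups, with log2 differences from -0.38 for Znhit6 to -0.13 for Odf2l. Selenof, a selenoprotein of the endoplasmic reticulum, passed the threshold without WT culture 4 (log2 difference -0.72, limma adjusted p = 0.0257).

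**Figure D3:**
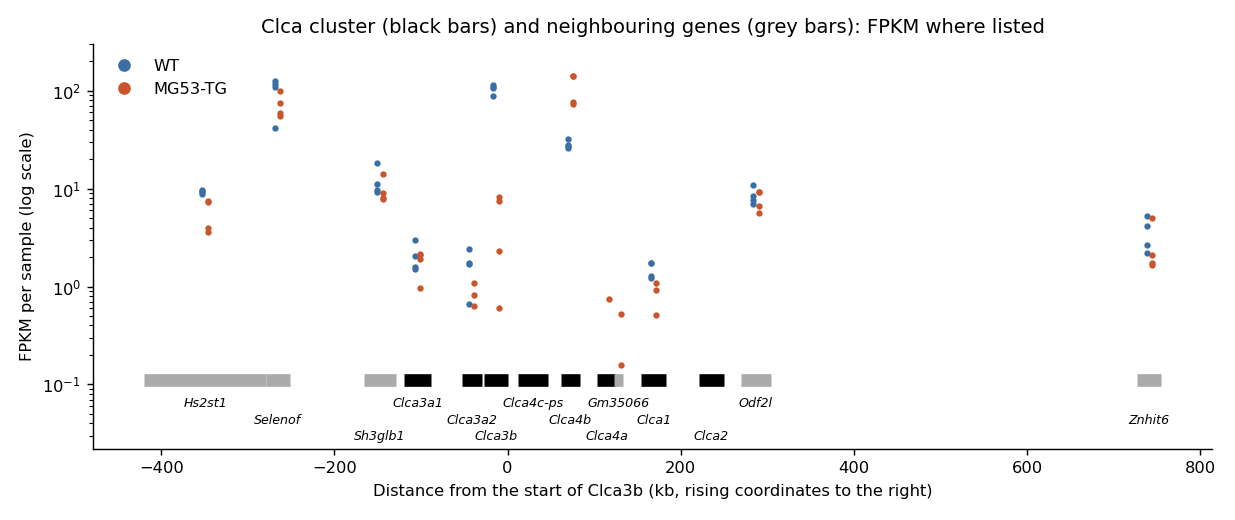
FPKM per sample (log axis) of the genes of the Clca cluster and their neighbours, placed by distance in kb from the start of Clca3b, with black bars for Clca genes, grey bars for other genes, blue points for WT and orange points for MG53-TG cultures. Clca3b and Clca4b differed between the groups in opposite directions and, except for Clca3b in MG53-TG cultures 3 and 4, lay above the other Clca genes, which were at or under 3.00 FPKM.

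The transcript events gave no sign of a second form of the main genes. Clca3b and Clca4b each had 1 transcription start and 1 transcription end. Start and end had the same FPKM in every sample. Events of a gene divide the same FPKM in these data, so this equality by itself says nothing on a second form. Clca1 had its start and an event that keeps 2 inner exons, at chr3:145005880-145006116 and chr3:145007753-145007923, with the same FPKM as the start, and no transcription end. Skipped exons were listed only for the low genes. A 101-base exon of Clca3a1 at chr3:144748401-144748501 was kept in 47.7% to 98.5% of the FPKM in WT and 38.8% to 72.4% in the MG53-TG cultures, so the groups overlapped.

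Promoter sequence from RefSeq (GRCm38.p6) was held for 2 of the 4 genes, Clca3b and Clca4b. The bases before the annotated start are shown because these genes differed between the genotypes in opposite directions. Capitals mark the octamer ATGCAAAT, the motif of POU-domain factors.
Clca3b, chr3:144849358-144849552, minus strand: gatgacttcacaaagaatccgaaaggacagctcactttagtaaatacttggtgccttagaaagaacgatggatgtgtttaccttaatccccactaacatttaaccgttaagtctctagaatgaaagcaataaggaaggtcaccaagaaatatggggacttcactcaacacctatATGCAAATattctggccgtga
Clca4b, chr3:144932530-144932779, minus strand: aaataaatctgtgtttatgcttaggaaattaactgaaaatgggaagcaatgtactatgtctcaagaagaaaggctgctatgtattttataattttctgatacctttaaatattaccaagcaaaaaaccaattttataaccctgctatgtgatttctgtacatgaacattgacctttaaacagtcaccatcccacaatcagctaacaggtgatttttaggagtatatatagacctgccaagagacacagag
The longest run of bases that both promoters shared was 8. Motifs were searched on both strands in the 250 bases before the RefSeq start, of which the first 195 are printed for Clca3b, and the share of 32851 mouse promoters with a match in the same window is given beside each. The octamer matched in Clca3b and not in Clca4b (1.60% of all promoters). It also matched in the neighbour Clca3a2, which was at low levels in both groups. The promoters of Clca3a2 and Clca3b shared a run of 39 bases. This run holds the octamer, so both matches lie in the same shared stretch. In Clca3b it began 22 bases before the annotated start and continued past that start. The TATA motif TATAAA matched 2 times in Clca4b and not in Clca3b (12.4% of all promoters). Both matches were on the opposite strand, where the printed sequence reads TTTATA, and TATAAA itself does not occur in it. The letters GTTAAT, part of the HNF1 motif, matched in Clca4b and not in Clca3b (6.43% of all promoters), and the nuclear receptor half-site AGGTCA matched in both (14% of all promoters). The CDX2 motif TTTATGG (2.43%) and the HNF4A motif CAAAGTCCA (0.384%) matched in neither. Such matches are counts of letters and show no binding.

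Genes of the mucus and goblet cell list, to which Clca1 belongs by its known role, were mostly lower in MG53-TG. Of 14 tested, 10 fell, none rose and 4 did not pass the test, against 28.7% lower and 15.6% higher over all genes, and the median log2 difference was -1.0 against -0.17 over all genes. Agr2, a chaperone of mucin folding, fell from 76.0 to 100 FPKM in the WT to 7.66 to 19.2 FPKM in the MG53-TG cultures (log2 difference -2.66, standard error 0.25, limma adjusted p = 6.9e-05). The gel-forming mucin Muc2 was at 24.4, 28.7, 20.4 and 27.5 FPKM in WT and at 3.00, 7.86, 10.9 and 14 FPKM in MG53-TG (log2 difference -1.55, limma adjusted p = 0.00899). The kallikrein Klk1 and the O-glycosylation enzyme Galnt12 fell with log2 differences of -1.98 and -1.75 (limma adjusted p = 4.6e-05 and 0.000791). Fcgbp, Spink4, Sytl2, Tff3, Spdef and Ern2 also fell, of which Ern2 missed the threshold in 6 of 8 fits that each left out 1 sample (limma adjusted p up to 0.107). Zg16, a lectin of goblet cell granules, was at 7.57, 11.8, 53.0 and 62.2 FPKM in MG53-TG cultures 1 to 4 and at 5.25 to 11.2 FPKM in the WT, and did not pass the test (log2 difference 1.33, limma adjusted p = 0.119). It passed without MG53-TG culture 1 (log2 difference 1.84, limma adjusted p = 0.0274), and without cultures 3 and 4, its high samples, the log2 difference was 0.087. Retnlb, Rep15 and Atoh1 had no entry. The summed level of the list was 812 to 930 FPKM in WT and 249, 328, 495 and 576 FPKM in MG53-TG cultures 1 to 4. The listed values of Clca1 in MG53-TG cultures 1, 3 and 4 had the same order as this sum. Culture 2, without an entry for Clca1, had a higher sum than culture 1. The part of goblet cell content in the values of Clca1 was not tested.

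Chloride and bicarbonate transport, the function for which the family was named, held genes that changed in both directions. Of 15 genes tested, 5 rose and 4 fell, against 15.6% higher and 28.7% lower over all genes, with a median log2 difference of 0.01. Ano1, the calcium-activated chloride channel on which CLCA1 is known to act, was at 2.49, 2.12, 3.36 and 1.83 FPKM in WT and was not listed in any MG53-TG culture (limma adjusted p = 4.7e-05). Kcnn4, a calcium-activated potassium channel that sustains chloride secretion, fell from 11.5 to 15.2 FPKM to 0.522 to 0.714 FPKM (log2 difference -3.20, limma adjusted p = 5.8e-07). Kcne3, a potassium channel subunit, and Slc12a2, the cotransporter that loads chloride into secreting cells, fell with log2 differences of -2.36 and -1.52 (limma adjusted p = 0.00347 and 0.0260), and of -1.46 and -0.61 without MG53-TG cultures 3 and 4. Slc12a2 missed the threshold without MG53-TG culture 3 and without any 1 WT culture, with a limma adjusted p of up to 0.0693. The exchangers Slc26a6 and Slc26a3, which take up chloride in return for bicarbonate, rose with log2 differences of 3.25 and 1.73 (limma adjusted p = 1.9e-05 and 2.4e-05). The sodium-proton exchanger Slc9a3 and the chloride channel Clcn2 rose with log2 differences of 2.71 and 1.35 (limma adjusted p = 5.9e-05 and 0.000275), and Ano9 rose as well. Cftr, the cAMP-activated chloride channel, was at 13.8 to 25.1 FPKM in WT and 12.3 to 31.3 FPKM in the MG53-TG cultures (log2 difference -0.03, limma adjusted p = 0.946).

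Among the other metalloproteases and their inhibitors, 7 of 15 tested genes rose and 6 fell, against 15.6% and 28.7% of all genes, with a median log2 difference of -0.13. Those that rose were mostly peptidases of the brush border. Mme (neprilysin), Ace and Mep1b (meprin beta) rose with log2 differences of 3.85, 3.11 and 2.17 (limma adjusted p = 0.000520, 0.000184 and 5.5e-06), and WT culture 4, in which Mme was not listed, is left out of its value. Anpep, Mep1a and Adam15 also rose. Mmp7, the matrix metalloprotease of Paneth cells, fell from 21.9 to 25.6 FPKM to 1.76 to 2.74 FPKM (log2 difference -2.99, limma adjusted p = 1.1e-06). Mmp14, Mmp15 and Adam10 fell with log2 differences of -2.0, -1.15 and -1.09 (limma adjusted p = 0.000472, 0.000572 and 0.00250), and Adam17 and Adam9 fell as well. Clca3b thus had a larger decrease than any gene tested in this list, and Clca4b an increase within the range of the brush border peptidases, given side by side without a test.

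Clca1 is known as a target of interleukin 13 in airway epithelium. Of 7 tested genes of the response to interleukins 4 and 13, 4 fell and none rose, against 28.7% and 15.6% of all genes, with a median log2 difference of -0.38. Stat6, the transcription factor of this response, was at 23.3 to 25.2 FPKM in WT and at 13.5 to 13.9 FPKM in MG53-TG (log2 difference -0.78, standard error 0.08, limma adjusted p = 0.000119). The transcription factors Foxa2 and Spdef and the kinase Jak1 fell with log2 differences of -1.34, -0.89 and -0.38 (limma adjusted p = 0.00230, 0.00475 and 0.0432). Jak1 passed the threshold in 1 of 8 fits that each left out 1 sample, with a limma adjusted p of up to 0.107 in the others. The receptor chains Il4ra and Il13ra1 had log2 differences of -0.16 and -0.06 (limma adjusted p = 0.623 and 0.795). Without MG53-TG cultures 3 and 4 both passed the threshold as lower, at limma adjusted p of 0.0338 and 0.0372.

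**Figure D4:**
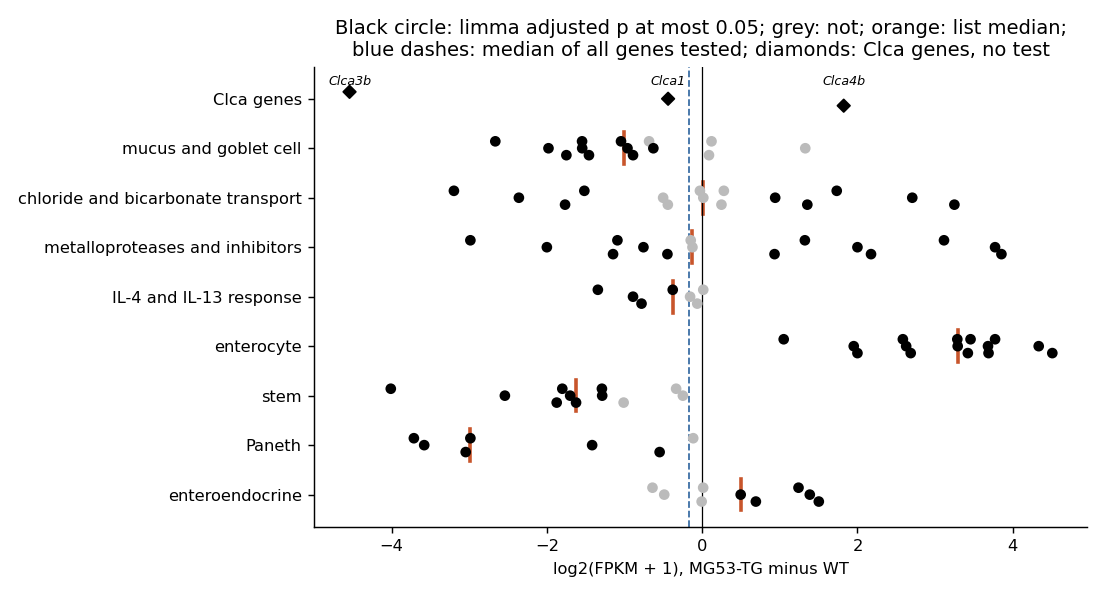
Differences of log2(FPKM + 1), MG53-TG minus WT, for the 3 Clca genes over the filter (diamonds, no test) and for the tested genes of 8 lists (circles, black where the limma adjusted p was at most 0.05), with the list median in orange and the median of all genes as a blue dashed line. Clca3b lay at -4.54 and Clca4b at 1.82, while the enterocyte genes lay between 1.05 and 4.51.

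Markers of the epithelial cell types differed between the genotypes as well. All 15 enterocyte markers tested rose (median log2 difference 3.29), and their summed level was 801 to 942 FPKM in WT and 9649, 9183, 11875 and 12213 FPKM in MG53-TG cultures 1 to 4. Of 11 stem cell markers, 8 fell and none rose, with a sum of 459 to 632 FPKM in WT and 247, 257, 82.7 and 56.9 FPKM in MG53-TG cultures 1 to 4. Thus Clca4b was high in the same MG53-TG cultures as the enterocyte sum, and Clca3b was low in the same samples as the stem cell sum, whereas among the WT cultures Clca4b was lowest in sample 3, in which the enterocyte sum was highest. Of 7 Paneth markers tested, 6 fell, and of 9 enteroendocrine markers 5 rose and none fell, where 28.7% of all genes were lower and 15.6% higher. The enteroendocrine hormone gene Pyy passed as lower with the replicate number as a block and without WT culture 4 (log2 difference -0.64 and -0.78, limma adjusted p = 0.0291 and 0.0430). The lists share genes: Anpep is in both the enterocyte and the metalloprotease list, Mmp7 in the Paneth and the metalloprotease list, and Spdef and Retnlb in the goblet cell and the interleukin list. Tuft cell, mesenchyme and immune markers were low, with summed levels of at most 1.73, 5.58 and 9.37 FPKM in any sample, and the immune sum came mainly from Cd68. Cd68, a lysosomal protein of macrophages, was the 1 immune marker tested and fell from 3.75 to 9.08 FPKM in WT to 0.469 to 1.28 FPKM in MG53-TG (log2 difference -1.84, limma adjusted p = 0.000568). Dclk1 and Il25 of tuft cells, Pdgfra and Acta2 of mesenchyme and Itgam of immune cells had no entry. The mesenchyme genes Col1a2 and Col3a1 were listed in MG53-TG cultures 2 to 4 and in no WT culture, at no more than 2.07 FPKM. Both passed the test as higher (limma adjusted p = 0.00401 and 0.000729), with MG53-TG culture 1 taken as missing, so 2 of 3 mesenchyme markers tested rose. With absent values as 0, or without MG53-TG cultures 3 and 4, both were too low to be tested. The part of these cell types in the values of the Clca genes was not tested.

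**Figure D5:**
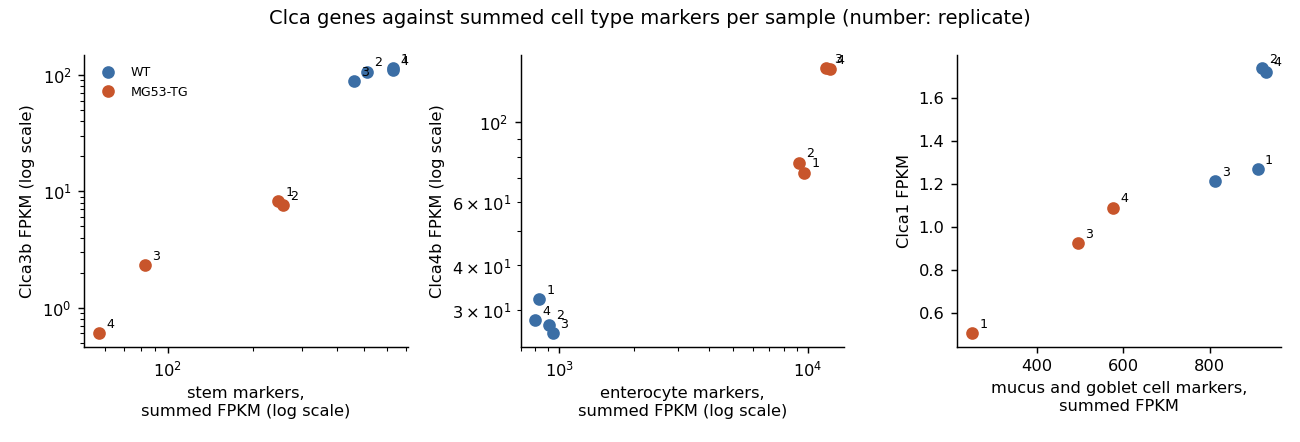
FPKM of Clca3b against summed stem cell markers, of Clca4b against summed enterocyte markers (log axes) and of Clca1 against summed goblet cell markers (linear axes), with each point a sample labelled by its replicate number and WT in blue, MG53-TG in orange. MG53-TG cultures 3 and 4 had the lowest Clca3b with the lowest stem cell sums of 82.7 and 56.9 FPKM, and the highest Clca4b with the highest enterocyte sums of 11875 and 12213 FPKM.

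The genes whose levels followed each Clca gene most closely within the groups were found from log2(FPKM + 1) with each group mean subtracted, over 10290 or 10291 genes listed in all samples. For Clca3b they were Kif11, a spindle motor, Birc5 (survivin) and Cdca5 (sororin, which holds sister chromatids together), with Pearson r of 0.999, 0.997 and 0.997 and Spearman rho of 0.976, 0.952 and 0.929 over 8 samples. Without MG53-TG cultures 1 and 4, the farthest from the median, r was 0.994, 0.996 and 0.992. Kif11 was at 20.9 to 25.0 FPKM in WT and 3.01 to 13.1 FPKM in the MG53-TG cultures. For Clca4b they were Cox6c, a subunit of cytochrome c oxidase, Isoc2a and Efcab14, with r of 0.992, 0.991 and 0.990 and rho of 0.976 for each over 8 samples, and with r of 0.982, 0.981 and 0.984 without MG53-TG cultures 3 and 4. Isoc2a was at 1.37 to 2.51 FPKM in WT and 3.16 to 10.5 FPKM in the MG53-TG cultures. For Clca1 they were Fam126b, Dleu2 and Smim15, with r of 0.985, 0.985 and 0.979 and rho of 0.964, 0.929 and 0.857 over the 7 samples that list it, and with r of 0.959, 0.987 and 0.953 without WT culture 3 and MG53-TG culture 1. These are the highest of many correlations over few samples and are given as a description. Most of the deviation of Clca3b and Clca4b came from the MG53-TG cultures.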

How the data were processed

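RNA of 4 WT and 4 MG53-TG crypt organoid cultures was sequenced. The submitters' processing notes name Cutadapt 1.9.1, HISAT2 2.0.1, HTSeq 0.6.1, DESeq2 and the build mm10. The authors deposited FPKM values per transcript event (starts, ends, skipped exons, retained introns; 20 types, 128369 events), and the tool that made them is not given in the sources used here. The smallest FPKM was 1e-06, so whole reads could not be recovered, and the depth is unknown. Events went to the gene of GENCODE M21 (GRCm38) whose exon ends they use, which moved 6.57% of events, 5 of 19 Clca events among them. A gene's FPKM was the sum of its starts, or of its ends where that mean was higher. An absent value was taken as missing where the median over the other samples of its group, counting absent ones as 0, reached 0.5 FPKM. Elsewhere it was taken as 0. Groups were compared with limma 3.58.1 (trend) in R 4.3.3 on log2(FPKM + 1) for the 11067 genes whose mean reached 0.5 FPKM, Benjamini-Hochberg adjusted, threshold 0.05. The fit was tested on simulated data with normal noise, the same SD in both groups and 200 changed genes among 10685. Of the genes changed by 1 on the log2 scale 69% were recovered, of those changed by 2 94%, and 12 unchanged genes were called. These rates hold for that setting. In the real data more genes were called, and the spread could differ between the groups, as for Clca3b. Promoters came from RefSeq, and other sequences from GRCm38 with Python 3.11.15 and Biopython 1.88.

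The Clca genes and the gene lists were chosen with earlier results of these data known. Named were these 4 genes, the other Clca genes, neighbours within 500 kb, Trim72, genes of the 4 functional lists past the threshold (values for at most 4 in each direction) and the 3 genes most like each Clca gene. Zg16, Cftr, Tmed6, Slc9a2, Slc4a4, Kcnq1, Lyz1, Il4ra, Il13ra1, Col1a2, Col3a1, Pyy and Cd68 were named after their values were seen. Same-numbered samples did not deviate together (correlations -0.07 to 0.10), so the numbers were not taken as pairs. Alternatives were pseudocount 0.1, no filter or one at 2 FPKM, scaling by median of ratios, quantile normalization, starts or ends only, the highest event, a replicate block and leaving out each sample. Absent values as 0, identifiers as deposited and leaving out MG53-TG samples 3 and 4 were added after seeing the data. Some values are not reported here.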

Additional observations from a re-analysis of the deposited data

Results flagged for a closer look

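Gm35066 (ENSMUSG00000106361), a non-coding gene on the plus strand at chr3:144972124-144982560 that overlaps Clca4a on the opposite strand, was outside the comparisons. Its entries were 0.160 FPKM in MG53-TG culture 3 and 0.519 FPKM in culture 4, and no other sample listed it. Clca4a itself was listed in MG53-TG culture 3 alone. Whether the counting used strand is not given in the sources used here, and without strand the reads of the 2 genes cannot be told apart where they overlap.

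Among the Clca genes and their neighbours, 18 groups of 4 samples were searched for a sample far from the other 3, of which chance gives about 1 in 20. One such sample was found: the Znhit6 value of MG53-TG culture 1 was 4.97 FPKM, whereas cultures 2 to 4 had 2.11, 1.64 and 1.74 FPKM.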

How the results depend on the processing

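The log2 differences of Clca3b (-5.02 to -3.57) and Clca4b (1.37 to 2.01) kept their direction under all 18 alternatives run for each. Several of these could not change them. Both genes were listed in all samples under their own identifier, with the same FPKM at start and end. Starts only, ends only, the highest event, absent values as 0 and identifiers as deposited therefore returned -4.54 and 1.82 again. So did the replicate block, which leaves a difference between complete groups of equal size unchanged. The smallest sizes, -3.57 and 1.37, came without MG53-TG samples 3 and 4, a choice made after seeing the data, under which Clca1 gave no value. Leaving out each sample in turn gave -4.88 to -4.04 for Clca3b, 1.67 to 1.99 for Clca4b and -0.54 to -0.30 for Clca1. Clca1 moved beyond the spread between samples with a pseudocount of 0.1 (-0.79) and, chosen after seeing the data, with absent values as 0 (-0.66). It has no transcription end and gave no value with ends only. Clca3a2 passed the threshold in 3 of 19 alternatives: by starts only, by its highest event (limma adjusted p = 0.0127) and without WT replicate 2 (limma adjusted p = 0.0261). The count of called genes was 3638 to 5192 over the alternatives. With the replicate block, 4449 genes were called. With median-of-ratios scaling Ern2, Adam9, Jak1 and Lyz1 no longer passed the threshold (limma adjusted p = 0.0638, 0.0818, 0.237 and 0.0582) and Slc9a2 did (0.0470). Zg16 passed as higher with the replicate block (limma adjusted p = 0.0498) and Tmed6 without MG53-TG samples 3 and 4 (0.0149), and Sytl2 missed the threshold by ends only (0.176). The cause of these changes was not tested.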
